A study of Mus musculus with 12 samples.

Results

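Pmp22 (peripheral myelin protein 22) and 6 relatives were followed through mucosal scrapings of the mouse ileum: Emp1, Emp2, Emp3 (epithelial membrane proteins), Perp, Tmem47 and Lhfpl2. The members were chosen by family membership and with measured genotype values of these libraries known, so their genotype differences are given as a description, with no test. All 7 were found among the 55891 genes of the deposited table. Scrapings of 12 mice at baseline were sequenced, 1 library a mouse. Of these mice 6 were labelled ERBB3-dIE, 3 from litter A and 3 from litter B, and 6 were labelled Erbb3-FF, 4 from litter A and 2 from litter B. The gene Erbb3 codes for an ErbB receptor that responds to neuregulins. The sources used here do not give the altered exons, the driver of the ERBB3-dIE allele, or the strain, age and sex of the mice. The series title names Pmp22 as a tight junctional protein and asks how the receptor bears on its expression.

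Proteins of this family cross the membrane 4 times and expose a pair of extracellular loops, a layout shared with the claudins of tight junctions. PMP22 is best known from the compact myelin of Schwann cells, where changes of its gene dosage cause inherited neuropathies, and it is also found at junctions of epithelia. The Emp proteins bind integrins or other surface partners in epithelia and leukocytes, PERP is a p53 target and a part of desmosomes, TMEM47 sits at adherens junctions, and LHFPL2 belongs to a branch whose best known member, LHFPL5, is part of the mechanotransduction complex of inner ear hair cells. TPM, the unit of the deposited values, is scaled to gene length and to the library total, so levels of different genes can be set side by side.

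RefSeq start sites of the GRCm38.p6 assembly were matched for 6 of the 7 genes, 11 sites in all, and the 250 bases before each were searched on both strands for 6 short motifs. Windows of Pmp22 and Lhfpl2 are shown because these 2 genes had the lowest ERBB3-dIE levels relative to Erbb3-FF. Capitals mark every match, on either strand.
Pmp22, chr11:63128732-63128981, + strand: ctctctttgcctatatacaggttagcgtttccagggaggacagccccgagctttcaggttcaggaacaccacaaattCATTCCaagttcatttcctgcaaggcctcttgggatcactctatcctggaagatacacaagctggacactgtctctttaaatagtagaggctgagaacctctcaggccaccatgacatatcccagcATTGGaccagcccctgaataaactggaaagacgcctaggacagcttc
Pmp22, chr11:63131207-63131456, + strand: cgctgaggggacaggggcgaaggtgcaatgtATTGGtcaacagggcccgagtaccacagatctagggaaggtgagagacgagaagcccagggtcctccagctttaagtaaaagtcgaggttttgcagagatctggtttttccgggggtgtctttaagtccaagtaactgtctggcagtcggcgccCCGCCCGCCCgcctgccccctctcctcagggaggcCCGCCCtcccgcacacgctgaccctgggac
Lhfpl2, chr13:94057546-94057795, + strand: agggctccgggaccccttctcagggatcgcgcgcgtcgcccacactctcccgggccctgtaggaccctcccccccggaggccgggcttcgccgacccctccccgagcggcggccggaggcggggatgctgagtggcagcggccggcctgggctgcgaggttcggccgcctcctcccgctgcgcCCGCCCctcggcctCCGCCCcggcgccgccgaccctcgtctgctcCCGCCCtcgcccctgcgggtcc
The first Pmp22 window held 48.8% G and C, 1 CCAAT box (read as ATTGG on the opposite strand) and 1 TEAD motif (GGAATG, read as CATTCC). The second held 61.2% G and C, 1 CCAAT box and 3 GC boxes (GGGCGG, read as CCGCCC), of which 2 overlap each other. The Lhfpl2 window held 80.0% G and C and 3 GC boxes, and 98.8% of the 32851 promoters in the RefSeq table had a lower share, with a median of 52.4%. GC boxes stood in 32.7% of all promoter windows of this length, CCAAT boxes in 33.9% and the TEAD motif in 12.6%. The TATA box (TATAAA, in 12.4% of promoters), the AP-1 motif (TGANTCA, in 6.75%) and the E-box (CACGTG, in 6.02%) had no match in these 3 windows. Of the 2 Pmp22 windows not shown, 1 had no match and 1 overlaps an annotated exon. These matches describe letters in a window. TPM per gene do not show which start site was used.

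Libraries had between 12344 and 13364 genes at 1 TPM or more, and the number of reads behind each is unknown. Mitochondrial transcripts made up 7.94% to 22.1% of a library. Mir6236 and Rn18s-rs5, which hold ribosomal sequence, made up 10.2% in Erbb3-FF mouse 5 and 10.8% in Erbb3-FF mouse 6, and at most 1.62% elsewhere. Summed smooth muscle markers reached 124 TPM in ERBB3-dIE mouse 4 and 122 TPM in ERBB3-dIE mouse 5, against at most 42.5 TPM in the other libraries. Summed B cell markers reached 273, 136 and 116 TPM in Erbb3-FF mice 1, 2 and 3, against at most 15.4 TPM in the other libraries. Summed epithelial markers (Epcam, Cdh1, Krt8, Krt18, Krt19 and Krt20) lay between 6715 and 9631 TPM in ERBB3-dIE mice and between 8288 and 10873 TPM in Erbb3-FF mice. Erbb3 itself averaged 142 ± 39.9 TPM in ERBB3-dIE mice and 117 ± 23.7 TPM in Erbb3-FF mice (SD, n = 6 each). These means mix litters in unequal parts. In litter A Erbb3 averaged 110 TPM in ERBB3-dIE mice (n = 3) and 104 TPM in Erbb3-FF mice (n = 4). In litter B it averaged 175 TPM in ERBB3-dIE mice (n = 3) and 143 TPM in Erbb3-FF mice (n = 2). A gene-level TPM does not show whether a part of the transcript is missing, so the labels could not be checked by it.

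Pmp22 was the most abundant of the 7 genes in Erbb3-FF ileum and stood at 28.4% of that level in ERBB3-dIE ileum. In litter A it had 250, 226 and 200 TPM in ERBB3-dIE mice, against 737, 775, 548 and 790 TPM in Erbb3-FF mice. In litter B it had 149, 135 and 217 TPM in ERBB3-dIE mice, against 605 and 701 TPM in Erbb3-FF mice. Every ERBB3-dIE library was below every Erbb3-FF library. The means were 196 ± 45.0 TPM in ERBB3-dIE mice and 693 ± 96.8 TPM in Erbb3-FF mice (SD, n = 6 each). The log2 difference, ERBB3-dIE minus Erbb3-FF, was -1.79 (SE 0.14) on the log2(TPM + 0.5) scale with litter in the model. For Pmp22 the log2 fold change in the authors' deposited table was -1.84. By TPM, Pmp22 ranked between 426th and 835th of all genes in ERBB3-dIE libraries and between 128th and 239th in Erbb3-FF libraries. In a scraping, fewer cells of a type and less RNA per cell cannot be told apart.

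Lhfpl2 was the other gene whose groups did not overlap. It had 20.3, 20.2 and 24.0 TPM in ERBB3-dIE mice of litter A, against 54.9, 62.4, 36.9 and 52.5 TPM in Erbb3-FF mice. In litter B it had 13.2 to 18.8 TPM in the 3 ERBB3-dIE mice, against 67.7 and 61.6 TPM in Erbb3-FF mice. The ERBB3-dIE mean of 19.1 ± 3.53 TPM was 34.1% of the Erbb3-FF mean of 56.0 ± 10.8 TPM (SD, n = 6 each), with a log2 difference of -1.52 (SE 0.17). The lowest Erbb3-FF value of Pmp22 and of Lhfpl2 came from mouse 5, 1 of the libraries rich in ribosomal sequence, while mouse 6, the other, had the highest Pmp22 value. The log2 difference of Lhfpl2 was -1.19 without the 3 libraries rich in B cell markers. Those are Erbb3-FF mice 1, 2 and 3, so no Erbb3-FF mouse of litter B was left and the difference rests on litter A. With all mice of litter A it was -1.22 in that litter. Ranges that did not overlap, with ERBB3-dIE lower, were found for 1.43% of the 12605 genes tested, and nothing is read from the 2 members among them, since the genotype values were known when the members were chosen.

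**Figure D1:**
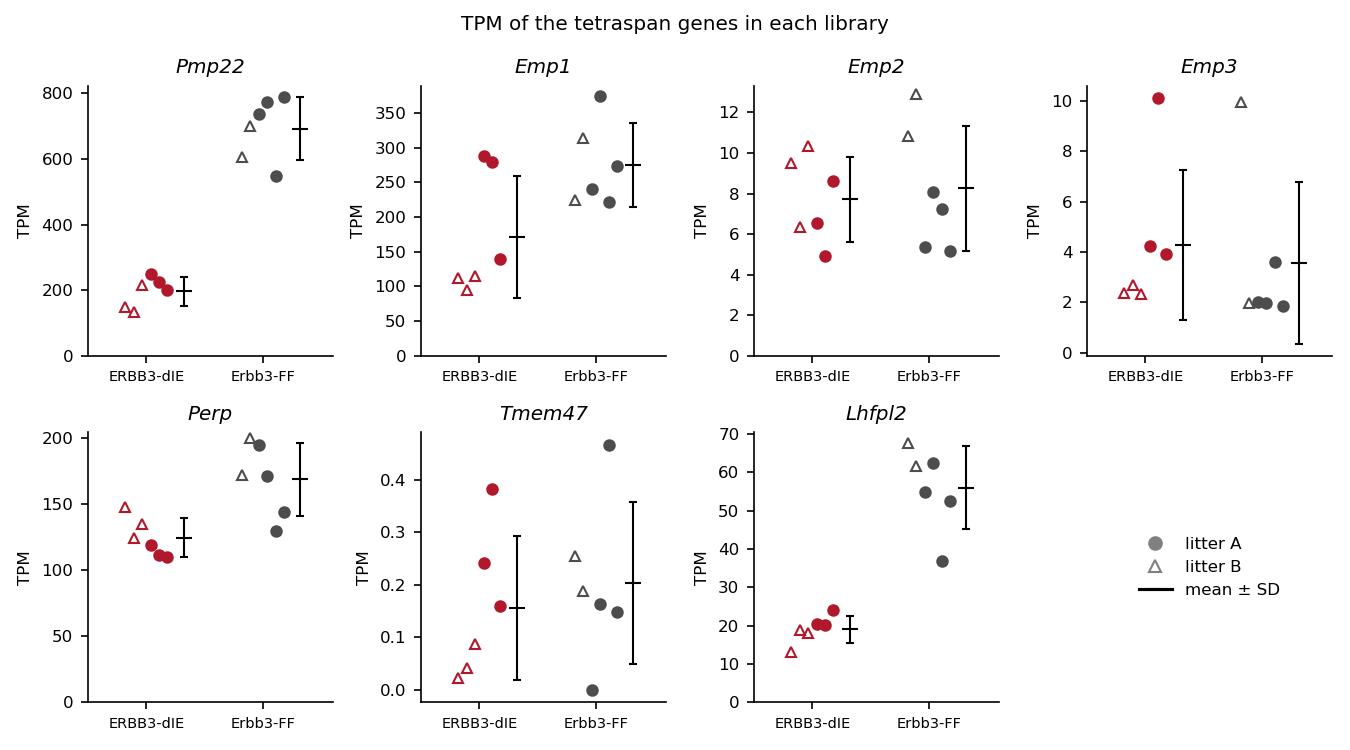
TPM of each of the 7 genes (y axes, from 0, each with its own scale) in the 6 ERBB3-dIE and 6 Erbb3-FF libraries; circles are litter A, triangles litter B, and bars the mean ± SD. The groups are apart for Pmp22 and Lhfpl2, and Tmem47 stays under 1 TPM in all 12 libraries.

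Perp, the desmosome member, was present at 125 ± 14.8 TPM in ERBB3-dIE mice and 169 ± 27.5 TPM in Erbb3-FF mice (SD, n = 6 each). It had 119, 111 and 110 TPM in ERBB3-dIE mice of litter A, against 195, 172, 130 and 144 TPM in Erbb3-FF mice. In litter B it had 148, 125 and 135 TPM in ERBB3-dIE mice, against 172 and 200 TPM in Erbb3-FF mice. The genotypes were apart within each litter and overlapped over both litters. The log2 difference was -0.47 (SE 0.10).

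Emp1 is expressed in many epithelia. It had 288, 280 and 140 TPM in ERBB3-dIE mice of litter A, against 240, 374, 222 and 274 TPM in Erbb3-FF mice, and the groups overlapped. In litter B it had 112, 94.2 and 116 TPM in ERBB3-dIE mice, against 225 and 314 TPM in Erbb3-FF mice, and the groups were apart. ERBB3-dIE mice 4 and 5, which had the 2 highest Emp1 values of their genotype, are also the libraries rich in smooth muscle markers. Over both litters the means were 172 ± 88.2 TPM in ERBB3-dIE mice and 275 ± 59.9 TPM in Erbb3-FF mice (SD, n = 6 each), and the log2 difference was -0.70 (SE 0.25). Without those 2 libraries it was -1.17, a fit that drops the highest Emp1 values of ERBB3-dIE mice and leaves ERBB3-dIE mouse 6 alone in litter A. The part of smooth muscle in the Emp1 level was not tested.

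Emp2, a partner of integrins in other epithelia, was low. It lay between 4.91 and 10.3 TPM in ERBB3-dIE mice (median 7.58) and between 5.15 and 12.9 TPM in Erbb3-FF mice (median 7.66), and its log2 difference was -0.16 (SE 0.19). The groups overlapped in litter A and were apart in litter B. Litter B holds 3 ERBB3-dIE and 2 Erbb3-FF mice, and the share of all genes apart within a litter was not counted.

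Emp3, which leukocytes also express, lay between 2.34 and 10.1 TPM in ERBB3-dIE mice (median 3.29) and between 1.85 and 9.96 TPM in Erbb3-FF mice (median 1.99). Its log2 difference was 0.34 (SE 0.44), and it was 0.0057 without ERBB3-dIE mouse 5 and 0.86 without Erbb3-FF mouse 1. In litter A Emp3 was higher in ERBB3-dIE mice (3.90 to 10.1 TPM) than in Erbb3-FF mice (1.85 to 3.62 TPM), without overlap. In litter B the groups overlapped. In each genotype 1 library stood far above the others: ERBB3-dIE mouse 5 at 10.1 TPM and Erbb3-FF mouse 1 at 9.96 TPM. ERBB3-dIE mouse 5 also had the highest summed stroma markers, at 85.7 TPM, and Erbb3-FF mouse 1 had 58.7 TPM, the next highest. Summed macrophage markers were 119 TPM in ERBB3-dIE mouse 5 and 272 TPM in Erbb3-FF mouse 1, and the value of Erbb3-FF mouse 1 was the highest of all libraries. The other 10 libraries had 7.09 to 55.2 TPM of stroma markers and 1.85 to 4.22 TPM of Emp3. High macrophage markers did not always go with high Emp3: ERBB3-dIE mouse 6 had 119 TPM of these markers and 3.90 TPM of Emp3, and Erbb3-FF mouse 2 had 153 TPM and 1.96 TPM. The part of stroma and macrophages in the Emp3 level was not tested.

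**Figure D2:**
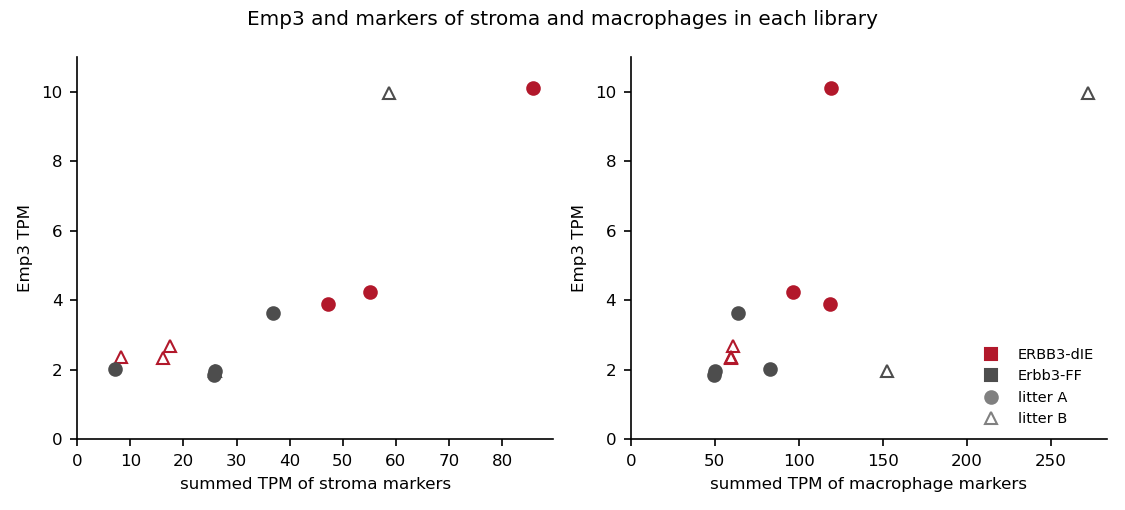
Emp3 TPM (y axis) against the summed TPM of 7 stroma markers (left) and 7 macrophage markers (right), 1 point a library; red is ERBB3-dIE, grey Erbb3-FF, circles litter A, triangles litter B. ERBB3-dIE mouse 5 and Erbb3-FF mouse 1 hold the 2 highest Emp3 values, 10.1 and 9.96 TPM.

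Tmem47 lay between 0.024 and 0.381 TPM in ERBB3-dIE mice and between 0 and 0.466 TPM in Erbb3-FF mice, and it was listed at 0 in Erbb3-FF mouse 3. It never reached 1 TPM and was left out of the tests.

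Within Erbb3-FF mice the order of mean levels was Pmp22, Emp1, Perp, Lhfpl2, Emp2, Emp3 and Tmem47, and Emp2 and Emp3 were the 1 pair of neighbours whose ranges overlapped. ERBB3-dIE mice kept this order of means, but Pmp22 was above Emp1 in 4 of 6 libraries and Emp1 above Perp in 3 of 6, and these neighbours overlapped, as did Emp2 and Emp3. The 7 genes summed to 524 ± 121 TPM in ERBB3-dIE mice and 1204 ± 159 TPM in Erbb3-FF mice (SD, n = 6 each). Without Pmp22 the sums were 327 ± 82.7 TPM in ERBB3-dIE mice and 512 ± 80.2 TPM in Erbb3-FF mice. Pmp22 took 34.3% to 43.6% of the summed TPM in ERBB3-dIE mice and 54.3% to 62.3% in Erbb3-FF mice. Perp took 17.0% to 34.1% in ERBB3-dIE mice and 11.4% to 15.8% in Erbb3-FF mice, and these ranges were apart as well. Shares of the same sum depend on each other, so a smaller Pmp22 share enlarges the rest. The Perp level itself was lower in ERBB3-dIE mice (means of 125 TPM against 169 TPM in Erbb3-FF mice). Emp1 took 23.2% to 42.9% in ERBB3-dIE mice and 19.4% to 26.9% in Erbb3-FF mice, which overlapped.

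**Figure D3:**
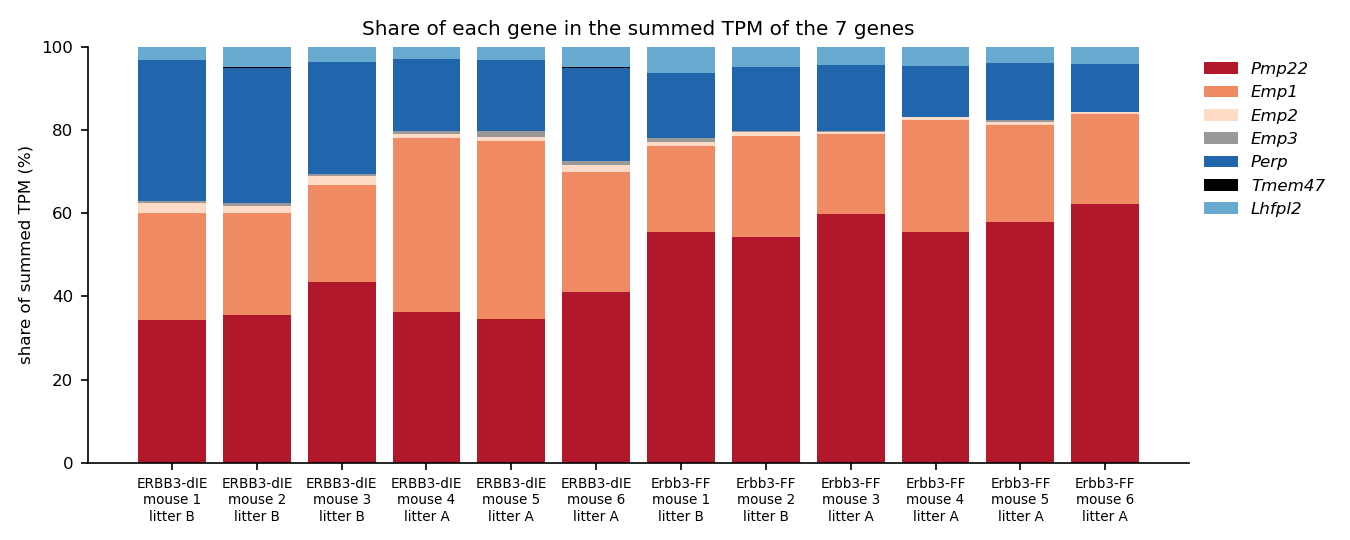
Share of each gene (colours) in the summed TPM of the 7 genes, in percent (y axis), for each library (x axis, ERBB3-dIE mice left of Erbb3-FF mice). Pmp22 takes at most 43.6% of the sum in ERBB3-dIE libraries and at least 54.3% in Erbb3-FF libraries.

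Ratios of 2 levels within a library do not depend on the library total. Pmp22 per unit of Perp was 1.01 to 2.10 in ERBB3-dIE mice and 3.51 to 5.48 in Erbb3-FF mice. Pmp22 per unit of Emp1 was 0.807 to 1.88 in ERBB3-dIE mice and 2.07 to 3.07 in Erbb3-FF mice. Both ratios were apart between genotypes. Pmp22 per unit of Lhfpl2 was 7.20 to 12.3 in ERBB3-dIE mice and 8.94 to 15.0 in Erbb3-FF mice, so the genotypes overlapped in this ratio.

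Pmp22 was also set against markers of epithelial cells in the same library. Per 100 TPM of the 6 epithelial markers it was 1.68 to 3.11 TPM in ERBB3-dIE mice and 6.48 to 8.11 TPM in Erbb3-FF mice, and the genotypes were apart. Per 100 TPM of the 10 enterocyte markers it was 0.797 to 5.33 TPM in ERBB3-dIE mice and 2.87 to 6.98 TPM in Erbb3-FF mice, which overlapped. On this scale the genotypes overlapped in litter A (3.06 to 5.33 TPM in ERBB3-dIE mice, 2.87 to 6.98 TPM in Erbb3-FF mice). They were apart in litter B (0.797 to 1.78 TPM in ERBB3-dIE mice, 2.91 to 3.33 TPM in Erbb3-FF mice). Per 100 TPM of the 7 villus tip markers Pmp22 was 63.3 to 181 TPM in ERBB3-dIE mice and 113 to 249 TPM in Erbb3-FF mice, which overlapped.

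Members of these marker lists also differed between genotypes, where 3.7% of all tested genes were called lower in ERBB3-dIE mice and 1.66% higher. Of 9 enterocyte markers tested 5 were lower in ERBB3-dIE mice by limma at an adjusted p under 0.05, with a median log2 difference of -0.95 over the 9. Of 7 villus tip markers 4 were lower, with a median of -2.04, and no member of either list was higher. Of the enterocyte markers 5 were also called higher in litter B, as were 4 of 6 goblet markers, 1 villus tip marker and 1 epithelial marker. In the same fit 1 smooth muscle marker was called lower. Over all 12605 genes 902 were called higher in litter B and 176 lower. The villus tip list was known to be lower in these libraries when it was chosen. The median over all 12605 genes was -0.00066. Of 6 goblet markers 2 were higher (median 0.57), and of 7 T cell markers 2 were higher (median 0.94). Of 6 epithelial markers 1 was higher and 1 lower (median -0.18). By limma 0 members passed of the 7 crypt, 6 smooth muscle, 5 stroma, 3 endothelial, 6 macrophage and 2 B cell markers tested, and 1 crypt and 1 B cell marker had an unadjusted p under 0.05. The medians of these lists were 0.52 for crypt, 0.19 for smooth muscle, 0.32 for stroma, 0.41 for endothelium, 0.17 for macrophages and -1.58 for B cells. The part of these cell types in the Pmp22 level was not tested.

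**Figure D4:**
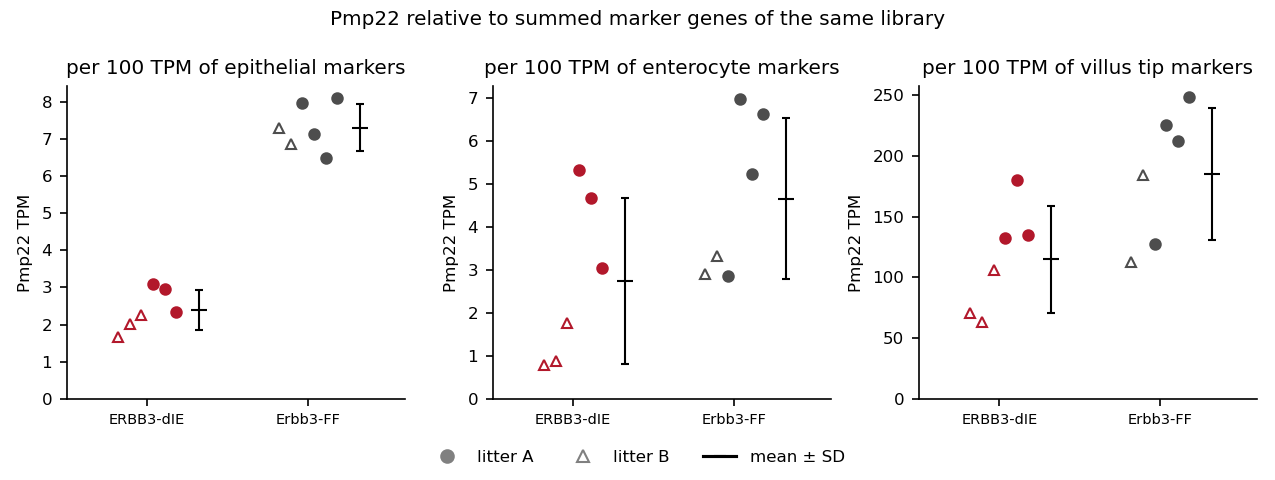
Pmp22 TPM per 100 TPM of summed epithelial (left), enterocyte (middle) and villus tip markers (right) in the 6 ERBB3-dIE and 6 Erbb3-FF libraries; circles are litter A, triangles litter B, bars the mean ± SD. The genotypes are apart for epithelial markers and overlap for the other 2 lists.

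Litter was not used to choose the members and could be tested. With genotype in the model, 0 of the 6 tested members passed an adjusted p of 0.05 by limma, and 3 had an unadjusted p under 0.05, beside 8.55% of all 12605 genes called and 3712 genes at an unadjusted p under 0.05. Emp2 was nearest, with a log2 difference, litter B minus litter A, of 0.59 (SE 0.19, adjusted p = 0.0695), and it averaged 8.74 ± 2.09 TPM in litter B against 6.69 ± 1.85 TPM in litter A in ERBB3-dIE mice (SD, n = 3 each). In Erbb3-FF mice Emp2 averaged 11.9 ± 1.45 TPM in litter B (n = 2) and 6.46 ± 1.43 TPM in litter A (n = 4). Emp1 differed by -0.58 (limma adjusted p = 0.150). Without the 2 libraries rich in smooth muscle markers, both ERBB3-dIE mice of litter A, it differed by -0.16 (limma adjusted p = 0.657). Without the 3 rich in B cell markers, which leaves no Erbb3-FF mouse in litter B, it was called at -1.07 (limma adjusted p = 0.0487). That fit takes its litter difference from the ERBB3-dIE mice only. The -1.07 in ERBB3-dIE mice alone (limma adjusted p = 0.0775) is therefore the same contrast and not a 2nd result. In Erbb3-FF mice alone the difference was -0.03 (limma adjusted p = 0.965). Perp differed by 0.24 (limma adjusted p = 0.147) and was called, at 0.29 (limma adjusted p = 0.0371), without Erbb3-FF mouse 3. The differences of Pmp22, Emp3 and Lhfpl2 were -0.29, -0.14 and -0.03, with 95% intervals of -0.61 to 0.02 for Pmp22, -1.11 to 0.84 for Emp3 and -0.41 to 0.34 for Lhfpl2.

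Whether the genotype difference itself depended on litter was tested as an interaction. By limma 0 of the 12605 genes passed an adjusted p of 0.05 (0% called), and 1174 had an unadjusted p under 0.05. Emp1 had a genotype difference of -1.31 in litter B and -0.28 in litter A, and the difference of these, -1.03, had a 95% interval of -1.95 to -0.12 (limma adjusted p = 0.469). Lhfpl2 had -1.94 in litter B and -1.22 in litter A, a difference of -0.71 with an interval of -1.34 to -0.08 (limma adjusted p = 0.468). Emp3 had -0.78 in litter B and 1.12 in litter A, a difference of -1.90 with an interval of -3.50 to -0.31 (limma adjusted p = 0.431). The litter B value of Emp3 rests on Erbb3-FF mouse 1, at 9.96 TPM. Erbb3-FF mouse 2, the other of that litter, had 1.96 TPM, below the ERBB3-dIE mice there (2.34 to 2.68 TPM). With 1 library left out, the Emp3 interaction lay between -2.95 and -0.86. Pmp22 had -1.99 in litter B and -1.65 in litter A, a difference of -0.34 with an interval of -0.97 to 0.30. Emp2 had -0.44 in litter B and 0.04 in litter A, a difference of -0.48 with an interval of -1.29 to 0.32. Perp had -0.45 in litter B and -0.48 in litter A, a difference of 0.03 with an interval of -0.46 to 0.51. The 3 intervals that leave out 0 belong to genes that miss the threshold once all 12605 genes are counted.

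**Figure D5:**
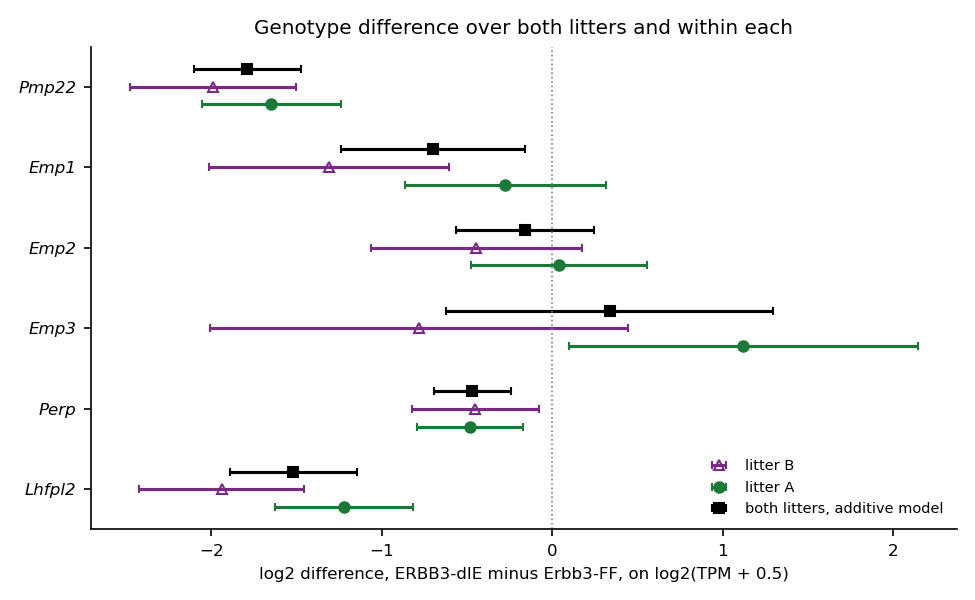
Log2 difference, ERBB3-dIE minus Erbb3-FF, on the log2(TPM + 0.5) scale (x axis) for the 6 genes tested, over both litters (squares) and in litter B (triangles) and litter A (circles); bars are 95% intervals. Pmp22 lies at -1.99 in litter B and -1.65 in litter A, and Emp3 at -0.78 in litter B and 1.12 in litter A. The litter B value of Emp3 rests on Erbb3-FF mouse 1, at 9.96 TPM against 1.96 TPM in Erbb3-FF mouse 2.

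Within groups, after each mean of litter and genotype was removed, the members varied only in part together over the 12 libraries. Pearson's r was 0.60 for Pmp22 and Emp1, 0.46 for Pmp22 and Perp, 0.41 for Pmp22 and Lhfpl2 and -0.47 for Emp3 and Perp. All values of a library share its RNA and its total. The genes closest to Pmp22 were Gtf2a2 (r = 0.95), Ptp4a2 (r = 0.93) and Lin7c (r = 0.92), and those closest to Lhfpl2 were Dhx36, Gt(ROSA)26Sor and Sepsecs (r = 0.91 to 0.92). Closest to Emp1 were Ethe1, Tgoln1 and Fam162a (r = 0.91 to 0.95), closest to Emp2 were Eif4a1, Desi1 and Stim1 (r = 0.91 to 0.94), and closest to Perp were Aurkaip1, Uqcrb and Ptgr1 (r = 0.97 to 0.98). Closest to Emp3 were Fabp4 (r = 0.93), Serping1 (r = 0.91) and C1qa (r = 0.89). C1qa, a complement gene of macrophages, is among the macrophage markers above. Emp3 stood far above the rest in 1 library of each genotype, and these libraries weigh heavily in its r. The 2 Erbb3-FF mice of litter B deviate from their mean by equal and opposite amounts. Genes named here are the 3 highest r of many for each member, over 12 libraries, and r was not tested.

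More distant tetraspan relatives were mostly absent from the scrapings: of 25 listed (Lhfpl, Tmem, Clrn, Cacng and other genes) 2 passed the filter of 1 TPM in 6 libraries. Clrn3, a clarin, averaged 79.4 ± 21.5 TPM in ERBB3-dIE mice and 89.7 ± 14.9 TPM in Erbb3-FF mice (SD, n = 6 each) and was higher in litter B by 0.51 on the log2 scale (limma adjusted p = 0.0293). This call held in 4 of 12 fits without 1 library, those without ERBB3-dIE mouse 3 or Erbb3-FF mouse 1, 3 or 6. Nkg7, the other, named after its values were seen, is a granule protein of cytotoxic lymphocytes. It averaged 15.1 ± 7.81 TPM in ERBB3-dIE mice and 6.19 ± 1.59 TPM in Erbb3-FF mice, a log2 difference of 1.08 (limma adjusted p = 0.0690). Nkg7 passed in 1 of 12 fits without 1 library, that without ERBB3-dIE mouse 2 (limma adjusted p = 0.0295, up to 0.154 in the rest).

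The lists of relatives, claudins and the genes below were chosen with earlier results of these data known. Their genotype calls are therefore a description, given beside the share of all genes called. Of 23 claudins 8 were fitted, and 1 was called lower in ERBB3-dIE mice, where 3.7% of all tested genes were. Cldn8, a claudin of tight ion barriers, lay between 4.25 and 5.28 TPM in ERBB3-dIE mice and between 6.05 and 9.49 TPM in Erbb3-FF mice, without overlap (log2 difference -0.62, SE 0.11, limma adjusted p = 0.0116). The call held in 12 of 12 fits without 1 library, but not without the 3 libraries rich in B cell markers (-0.76, limma adjusted p = 0.0834) or the 2 rich in smooth muscle markers (-0.61, limma adjusted p = 0.0904). Without the 3 libraries rich in B cell markers no Erbb3-FF mouse of litter B was left, so that fit compares genotypes in litter A alone. Over all 14 settings other than leaving out 1 library, the Cldn8 call held in 10 (limma adjusted p up to 0.335). Cldn7, the most abundant claudin, averaged 1227 ± 299 TPM in ERBB3-dIE mice and 1328 ± 231 TPM in Erbb3-FF mice (log2 difference -0.20, limma adjusted p = 0.388). Cldn3 was higher in litter B by 0.48 (limma adjusted p = 0.0362), a call that held in 2 of 12 fits, without Erbb3-FF mouse 1 or 3. The median log2 genotype difference of the 8 claudins was -0.07.

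Of 10 genes for partners that bind PMP22 or Emp proteins, or sit beside them at junctions, 2 were lower in ERBB3-dIE mice, against the same 3.7% of all genes. Itgb4, the integrin subunit of hemidesmosomes, averaged 30.5 ± 4.04 TPM in ERBB3-dIE mice and 44.2 ± 8.43 TPM in Erbb3-FF mice (log2 difference -0.48, limma adjusted p = 0.0346). Tjp1, which encodes the scaffold ZO-1, averaged 24.7 ± 2.58 TPM in ERBB3-dIE mice and 30.9 ± 2.10 TPM in Erbb3-FF mice (log2 difference -0.34, limma adjusted p = 0.0378). Without 1 library, the Itgb4 call held in 3 of 12 fits (ERBB3-dIE mouse 1, Erbb3-FF mouse 3 or 5 left out; limma adjusted p up to 0.0904 in the rest). The Tjp1 call held in 4 of 12 (ERBB3-dIE mouse 2 or 3, Erbb3-FF mouse 3 or 5 left out; up to 0.0866 in the rest). Ocln, encoding occludin, was higher in litter B by 0.44 (limma adjusted p = 0.0293, held in 3 of 12 fits, without ERBB3-dIE mouse 3 or 6 or Erbb3-FF mouse 3) and did not pass for genotype (-0.24, limma adjusted p = 0.186). Canx, the chaperone that holds misfolded PMP22 in the endoplasmic reticulum, was the most abundant, at 248 ± 27.5 TPM in ERBB3-dIE mice and 236 ± 34.2 TPM in Erbb3-FF mice (log2 difference 0.07, limma adjusted p = 0.758).

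Of 7 desmosome genes, partners of PERP, 1 was called lower, again beside 3.7% of all genes. This was Dsp: desmoplakin transcripts lay between 42.4 and 56.8 TPM in ERBB3-dIE mice and between 65.7 and 91.4 TPM in Erbb3-FF mice, without overlap (log2 difference -0.66, limma adjusted p = 0.0101). The Dsp call held in 12 of 12 fits without 1 library, but not without the 3 libraries rich in B cell markers (-0.54, limma adjusted p = 0.150) or the 2 rich in smooth muscle markers (-0.73, limma adjusted p = 0.0565). As for Cldn8, the fit without the 3 libraries rich in B cell markers compares genotypes in litter A alone. Over all 14 settings other than leaving out 1 library, the Dsp call held in 10 (limma adjusted p up to 0.190). Dsg2, the most abundant over all 12 libraries, had a log2 difference of -0.44 (limma adjusted p = 0.0721), and the median of the 7 was -0.33. Dsg2 passed in 1 of 12 fits without 1 library, that without Erbb3-FF mouse 5 (limma adjusted p = 0.0356, up to 0.173 in the rest). A list of p53 targets, the set to which Perp also belongs, included Trp53, the gene for p53 itself. Of its 13 genes tested 0 passed by limma for genotype or litter, with 3 and 6 at an unadjusted p under 0.05. Of all genes 21.8% for genotype and 29.4% for litter had an unadjusted p under 0.05. Cdkn1a, the most abundant of these, averaged 134 ± 42.5 TPM in ERBB3-dIE mice and 153 ± 41.8 TPM in Erbb3-FF mice (log2 difference -0.29, limma adjusted p = 0.392), and the median of the 13 was -0.15. Of 7 myelin-related genes tested, 0 passed by limma for genotype or litter. At an unadjusted p under 0.05 there were 4 for genotype and 0 for litter, beside the same 21.8% and 29.4% of all genes. Gjb1, the connexin 32 gene, was the most abundant of these, at 34.6 ± 3.83 TPM in ERBB3-dIE mice and 27.5 ± 4.42 TPM in Erbb3-FF mice (log2 difference 0.36, limma adjusted p = 0.0857). Of 6 genes of YAP and TEAD signalling tested 1 was called lower, beside 3.7% of all genes. Lats2, a kinase that restrains YAP, had 3.11 ± 0.91 TPM in ERBB3-dIE mice and 5.44 ± 2.30 TPM in Erbb3-FF mice (log2 difference -0.77, limma adjusted p = 0.0454). That call held in 2 of 12 fits, without Erbb3-FF mouse 3 or 4. Amotl2 was higher in litter B by 0.99 (limma adjusted p = 0.0293), held in 5 of 12 fits, without ERBB3-dIE mouse 3 or Erbb3-FF mouse 2, 3, 5 or 6. Yap1, the most abundant, had a log2 genotype difference of -0.17 (limma adjusted p = 0.333).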

How the data were processed

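RNA of ileal mucosal scrapings was purified with a commercial kit and sequenced as single-end reads of stranded mRNA libraries, per the labels' protocols. CASAVA, Salmon 1.10.0, DESeq2 and the build GRCm39 were used, per the submitters' processing notes. The sources used here do not give the annotation release. The authors deposited TPM per library for 55891 genes, each library summing to 1000000. They also deposited the mean normalized count (baseMean, a signal), the log2 fold change with its standard error, the Wald score, and the p-value and adjusted p-value of their own test, per the file headers (covariates not given in the sources used here). TPM keep no depth, so count models were not used.

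The 12605 genes that reached 1 TPM in 6 or more libraries were tested as log2(TPM + 0.5) with limma 3.58.1 in R 4.3.3 (eBayes with a variance trend), with litter and genotype as additive terms. The interaction was tested on the 4 litter and genotype means. The Benjamini-Hochberg adjustment ran over every tested gene, and calls were made at 0.05. A log2 difference on this scale understates the change of low genes. Members and gene lists were chosen with earlier results of these data known, so their genotype calls are a description. Of each list, genes past the threshold (up to 4) and the most abundant gene are named, and for likeness the 3 highest r among genes averaging at least 5 TPM. Lhfpl6 was found under its older symbol Lhfp. Replicates are separate mice, per the labels. The fits were tested on simulated data. For 1 marker list no result is reported here. Promoter sequences are from RefSeq (GRCm38.p6), not the build of the table. Figures were drawn with matplotlib 3.10.9.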

Additional observations from a re-analysis of the deposited data

Results flagged for a closer look

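Emp3 was marked in both genotypes, because the gap between the highest library and the next took a larger part of the group's range than Dixon's 95% limit for 6 values. The highest library was ERBB3-dIE mouse 5 at 10.1 TPM and, in the other genotype, Erbb3-FF mouse 1 at 9.96 TPM. About 1 in 20 groups is marked in this way by chance. Both libraries had the highest summed stroma markers (85.7 TPM in ERBB3-dIE mouse 5 and 58.7 TPM in Erbb3-FF mouse 1), and the part of stroma in the Emp3 level was not tested.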

How the results depend on the processing

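The log2 genotype difference of Pmp22 stayed negative under all alternatives, between -1.87 and -1.72 with 1 library left out and between -1.99 and -1.63 under the 15 other settings. Lhfpl2 (-1.94 to -1.19), Emp1 (-1.31 to -0.28) and Perp (-0.57 to -0.38) also stayed negative, while Emp2 reached 0.04 in litter A alone and Emp3 -0.78 in litter B alone. The cause was not tested for any change that follows. The genotype count of 676 genes (209 higher, 467 lower) became 350 with no filter, 1045 after rescaling without mitochondrial and ribosomal genes (220 higher, 825 lower), 243 with no litter term, 755 with mouse number as a replicate block (Pmp22 -1.84), 839 under median-of-ratios scaling, 6 in litter A alone and 15 in litter B alone. Chosen after seeing the data, leaving out the 3 libraries rich in B cell markers left 35 calls and the 2 rich in smooth muscle markers 108. Without 1 library there were 303 (ERBB3-dIE mouse 5) to 797 (Erbb3-FF mouse 5). The litter count of 1078 (902 higher in litter B, 176 lower) became 245 with no filter, 708 after rescaling (421 higher, 287 lower), 770 under median-of-ratios scaling (447 higher, 323 lower), 7 without the 2 libraries rich in ribosomal sequence, 0 by limma without the 2 rich in smooth muscle markers (2256 at an unadjusted p under 0.05), 297 with no genotype term, 4 in Erbb3-FF mice alone and 101 (without ERBB3-dIE mouse 1) to 3059 (without Erbb3-FF mouse 3) without 1 library. The interaction gave 53 calls with no filter and 0 to 36 without 1 library, and could not be fitted without the 3 libraries rich in B cell markers, which leaves litter B with no Erbb3-FF mouse. Correlations of same-numbered deviations were 0.07 to 0.36, and 2 of 6 mouse numbers matched best with themselves. Mouse 3 is from litter B in ERBB3-dIE and from litter A in Erbb3-FF. Whether mouse numbers pair the libraries was not tested. After rescaling, mean levels were higher for Pmp22, Emp1, Perp and Lhfpl2 (Pmp22 236 TPM in ERBB3-dIE mice and 855 TPM in Erbb3-FF mice). Depth per library is unknown, which limits what can be said of Tmem47.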
